A study of Mus musculus with 6 samples.

Results

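Mouse protein-coding genes can lie so close that the annotated end of one faces that of the next within 1 kb. On chromosomes 1 to 19, the RefSeq annotation of GRCm38 holds 2014 such pairs with non-overlapping spans, formed by 3614 of 20665 genes, and 409 genes stand in 2 or more pairs. Each paired region is the stretch between the facing ends plus 500 bp on either side. The comparison set is the 21751 gene ends, of 41330, that have no other end within 5 kb, each with 500 bp on either side. The regions were scored for open chromatin, from ATAC-seq (assay for transposase-accessible chromatin), and for H3K27ac, from ChIP-seq. H3K27ac is histone H3 acetylated at lysine 27, which is found at active promoters and enhancers. The cells were dorsal root ganglion cells of Runx3-BAC-GFP-CB6 transgenic mice at stage E11.5, fixed and sorted for GFP, labelled TrkC proprioceptive neurons, and used at 50000 cells per preparation. All 3 groups (ATAC, H3K27ac with antibody ab4729, and input DNA, 2 samples each) share this genotype, stage and sort. The labels do not say how many embryos were pooled.

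For each assay 1 consensus list of peaks was used, with positions and no signal, so a value per sample, a spread between replicates and the depth of each library cannot be given. The ATAC list held 42569 peaks on these chromosomes and the H3K27ac list 19482. In a sorted population, fewer cells with a peak and a weaker peak in each cell cannot be told apart. Of 9 sensory neuron markers, 7 had an ATAC peak at an annotated end, among them Isl1, Pou4f1 and Runx3, and 6 had H3K27ac. Ntrk3, which encodes TrkC, had neither mark within 500 bp of its annotated ends. Of 5 glial and neural crest markers 2 were open and 4 acetylated, among them Sox10, of 5 blood markers 1 was open and 0 acetylated, and of 6 endothelial and mural markers 1 was open and 0 acetylated. Of 6 mesenchyme and muscle markers 2 were open and 1 acetylated, and of 6 spinal cord markers 3 were open and 0 acetylated. The part of such cells in the results was not tested.

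Facing gene ends form 3 arrangements. Start-to-start pairs are transcribed away from each other and can share a bidirectional promoter, a stretch of DNA from which RNA polymerase II initiates in both directions. End-to-start pairs are transcribed the same way, so that the 3′ end of one gene precedes the start of the next. End-to-end pairs are transcribed towards each other, with both 3′ ends inside the region. Bidirectional promoters are known to be rich in CpG dinucleotides, to lack TATA boxes more often than other promoters and to serve many genes of DNA repair, mitochondrial function and basic metabolism. The arrangement could be read from the RefSeq promoter table for 1435 pairs, as it gives the strand of 16457 genes: 565 start-to-start, 448 end-to-start and 422 end-to-end. It was unknown for 579 pairs.

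The sequences of 6 start-to-start regions show what lies between facing starts. Each sequence holds the 300 bases around the RefSeq start of the second gene of the pair (GRCm38.p6, + strand, 250 bases before to 50 after), and capitals mark the bases between the 2 outermost annotated starts. The first 4 were open and acetylated, the histone pair was open only, and the last had neither mark.
Brca1/Nbr1: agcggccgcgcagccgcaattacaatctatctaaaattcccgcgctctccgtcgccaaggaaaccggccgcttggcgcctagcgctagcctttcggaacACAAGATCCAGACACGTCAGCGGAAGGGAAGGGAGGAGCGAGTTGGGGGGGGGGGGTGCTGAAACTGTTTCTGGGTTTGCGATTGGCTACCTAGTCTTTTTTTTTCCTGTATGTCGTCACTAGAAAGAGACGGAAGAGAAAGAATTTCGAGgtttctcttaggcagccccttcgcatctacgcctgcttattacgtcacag
Mrps12/Sars2: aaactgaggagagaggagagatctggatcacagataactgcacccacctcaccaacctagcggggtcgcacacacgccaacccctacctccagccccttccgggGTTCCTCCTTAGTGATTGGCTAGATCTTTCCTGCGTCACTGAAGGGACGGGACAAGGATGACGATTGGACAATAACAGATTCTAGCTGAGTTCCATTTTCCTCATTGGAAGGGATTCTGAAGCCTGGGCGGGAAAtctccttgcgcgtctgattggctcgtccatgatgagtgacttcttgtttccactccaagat
Polh/Xpo5: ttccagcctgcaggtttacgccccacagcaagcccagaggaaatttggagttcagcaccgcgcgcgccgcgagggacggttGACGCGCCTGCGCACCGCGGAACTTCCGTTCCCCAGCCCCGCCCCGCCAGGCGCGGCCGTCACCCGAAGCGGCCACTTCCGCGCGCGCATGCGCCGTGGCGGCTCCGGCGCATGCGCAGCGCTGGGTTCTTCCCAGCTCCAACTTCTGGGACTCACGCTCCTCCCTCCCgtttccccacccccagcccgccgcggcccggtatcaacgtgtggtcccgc
Ranbp1/Trmt2a: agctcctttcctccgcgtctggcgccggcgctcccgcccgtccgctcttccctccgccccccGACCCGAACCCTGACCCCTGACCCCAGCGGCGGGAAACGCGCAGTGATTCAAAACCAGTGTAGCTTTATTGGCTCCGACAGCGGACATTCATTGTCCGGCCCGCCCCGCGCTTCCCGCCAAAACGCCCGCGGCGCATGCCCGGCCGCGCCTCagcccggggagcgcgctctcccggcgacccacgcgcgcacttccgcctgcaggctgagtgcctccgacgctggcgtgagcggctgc
H2bc23/H2ac23: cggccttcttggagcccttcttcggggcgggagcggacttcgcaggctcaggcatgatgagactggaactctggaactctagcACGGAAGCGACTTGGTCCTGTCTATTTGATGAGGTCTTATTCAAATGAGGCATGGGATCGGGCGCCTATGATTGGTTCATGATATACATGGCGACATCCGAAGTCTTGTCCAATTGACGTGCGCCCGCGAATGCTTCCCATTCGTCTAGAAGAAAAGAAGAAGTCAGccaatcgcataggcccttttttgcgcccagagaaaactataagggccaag
Tmie/Als2cl: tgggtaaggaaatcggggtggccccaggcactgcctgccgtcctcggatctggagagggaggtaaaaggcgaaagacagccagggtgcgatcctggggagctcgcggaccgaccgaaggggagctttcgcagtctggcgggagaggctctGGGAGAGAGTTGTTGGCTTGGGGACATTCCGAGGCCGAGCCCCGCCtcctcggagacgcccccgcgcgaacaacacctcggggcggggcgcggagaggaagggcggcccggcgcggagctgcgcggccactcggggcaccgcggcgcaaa
They lie at chr11:101551857-101552156 (Brca1/Nbr1), chr7:28741718-28742017 (Mrps12/Sars2), chr17:46202561-46202860 (Polh/Xpo5), chr16:18248633-18248932 (Ranbp1/Trmt2a), chr13:21810117-21810416 (H2bc23/H2ac23) and chr9:110879924-110880223 (Tmie/Als2cl). The 300 bases held 23, 11, 40, 42, 18 and 33 CpG dinucleotides in that order. The letters CCAAT, read on both strands, stood between the starts 1 time in Brca1/Nbr1, 3 times in Mrps12/Sars2, 0 times in Polh/Xpo5, 1 time in Ranbp1/Trmt2a, 2 times in H2bc23/H2ac23 and 0 times in Tmie/Als2cl. The region with neither mark thus held more CpG dinucleotides than 3 of the others.

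Paired regions carried both marks about as often as not, and single ends far less often. An ATAC peak overlapped 1143 of 2014 paired regions (56.8%, 95% Wilson interval 54.6 to 58.9) against a background of 32.6% of single gene ends. An H3K27ac peak overlapped 1047 (52.0%, 49.8 to 54.2) against 25.9% of single ends. Both marks were found in 1003 (49.8%, 47.6 to 52.0) against 24.5%. The differences were 24.1 percentage points for ATAC (95% Newcombe interval 21.8 to 26.3), 26.1 for H3K27ac (23.8 to 28.4) and 25.3 for both (23.1 to 27.6). Over all 41330 gene ends, paired or not, the shares were 30.4%, 25.5% and 23.7%. These intervals cover counting error over regions only. The regions of 1 consensus list are not replicates, 71 paired regions overlap another, and neighbouring regions are not independent. Paired regions covered 2.67 Mb and held 3.26% of the ATAC peaks and 5.20% of the H3K27ac peaks.

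The shares differed by arrangement far more than between paired and single ends as a whole. Start-to-start regions were open in 538 of 565 cases (95.2%, 93.1 to 96.7) and acetylated in 517 (91.5%, 88.9 to 93.5), and 515 had both marks (91.2%). The background of 9005 single starts was 59.8% open, 48.7% acetylated and 46.7% both, and over all 16457 starts of known strand it was 56.6%, 48.1% and 46.2%. The difference was 35.4 points for ATAC (33.1 to 37.2) and 42.8 points for H3K27ac (40.03 to 45.1). End-to-end regions were open in 28 of 422 cases (6.64%, 4.63 to 9.42) and acetylated in 23 (5.45%, 3.66 to 8.05), with both marks in 8. The background of 8139 single 3′ ends was 2.56%, 0.872% and 0.356%. End-to-start regions stood between, with 286 of 448 open (63.8%, 59.3 to 68.2) and 237 acetylated (52.9%, 48.3 to 57.5). Pairs of unknown arrangement were open in 291 of 579 cases and acetylated in 270.

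**Figure D1:**
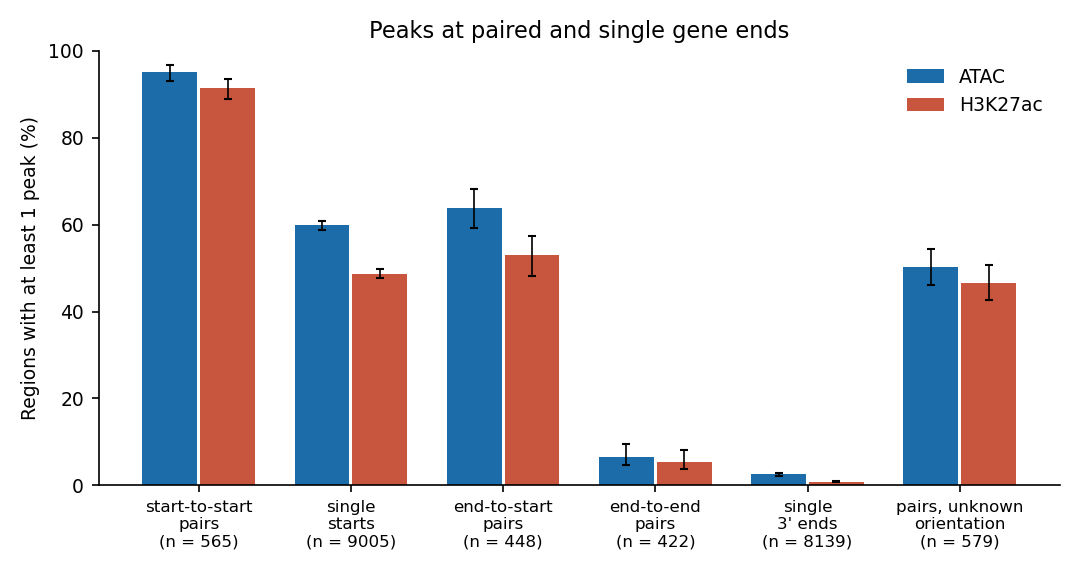
Share of regions with at least 1 ATAC (blue) or H3K27ac (red) peak, in percent, for paired regions by arrangement and for single ends; bars are shares and whiskers 95% Wilson intervals. Start-to-start pairs reach 95.2% and 91.5% against 59.8% and 48.7% of single starts, while end-to-end pairs stay at 6.64% and 5.45%.

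The difference at starts was about as large in windows of equal length. Each start was scored in its own window of 500 bp on either side. In start-to-start pairs 1057 of 1123 starts were open (94.1%) and 1020 acetylated (90.8%). These shares were 34.3 points (32.5 to 35.9) and 42.1 points (40.04 to 44.01) above single starts. Most of these windows also hold the facing start, as the starts lie a median of 100 bp apart (quartiles 48 and 234). A single start has no other gene end within 5 kb. How far the facing start raised the shares was not tested. Acetylation also differed among regions that were open already. Of open start-to-start regions 95.7% carried H3K27ac, of open single starts 78.0%, a difference of 17.7 points (15.4 to 19.5). Of open end-to-start regions 78.7% carried it, and of the 28 open end-to-end regions 28.6%.

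Of 9 start-to-start pairs with a gene of a list of divergent neighbours known in the literature, 8 carried both marks and 1 was open only. This is near the share of both marks over all start-to-start regions, 515 of 565 (91.2%). Brca1/Nbr1, a homologous recombination gene beside an autophagy receptor, have their starts 151 bp apart. That region held 2 ATAC peaks of 227 and 452 bp under 1 H3K27ac peak of 2655 bp. Atm/Npat, the DNA damage kinase and a coactivator of histone genes, lie 60 bp apart under 1 ATAC peak of 556 bp and 1 H3K27ac peak of 1930 bp. Wrap53/Trp53, the second gene encoding the tumour suppressor p53, lie 97 bp apart under an ATAC peak of 296 bp and an H3K27ac peak of 3197 bp. Gart/Son, a purine synthesis enzyme and a splicing cofactor, lie 851 bp apart and held 3 ATAC peaks under 1 H3K27ac peak of 2812 bp. Ranbp1/Trmt2a, a Ran-binding protein and a tRNA methyltransferase, lie 152 bp apart, and their H3K27ac peak of 4249 bp was among the 5 widest of all start-to-start regions.

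The exception in that list was Psmb9/Tap1, an immunoproteasome subunit and a peptide transporter of antigen presentation. Their starts are 225 bp apart, and the region held 2 ATAC peaks of 248 and 118 bp and no H3K27ac peak. The next gap along, Tap1/Psmb8, where the end of Tap1 faces the start of another immunoproteasome gene 969 bp away, was also open only. Pcna, the sliding clamp of DNA replication, stands in 2 pairs. At its start, Pcna/Cds2 was open and acetylated. The region at its 3′ end, Tmem230/Pcna, also holds the start of Tmem230, and it had an H3K27ac peak and no ATAC peak. That peak lay on the Tmem230 side. It ended at position 132248754 on chromosome 2, short of the 3′ end of Pcna at 132249286.

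Facing starts were mostly covered by a single peak. In 426 of 538 open start-to-start regions (79.2%, 75.6 to 82.4) 1 ATAC peak covered both starts, and in 468 of 517 acetylated regions (90.5%, 87.7 to 92.8) 1 H3K27ac peak did. The share for ATAC followed the distance. It was 262 of 272 (96.3%) at 100 bp or less, 121 of 145 (83.4%) over 100 and up to 250 bp, 43 of 83 (51.8%) over 250 and up to 500 bp, 0 of 20 over 500 and up to 750 bp, and 0 of 18 over 750 bp, with upper limits of 16.1% and 17.6% for the last values. H3K27ac peaks still covered both starts in 10 of 16 acetylated pairs over 750 bp apart. The number of peaks moved with distance too, as 2 or more ATAC peaks stood in 47 of 272 regions at 100 bp or less and in 27 of 83 over 250 and up to 500 bp. No paired region held 2 H3K27ac peaks. Neighbouring peaks of that list are never closer than 1038 bp, which limits this count. The shortest regions could not hold 2 such peaks, while longer ones could. As facing starts are at most 1 kb apart, separate H3K27ac peaks that each cover 1 of the 2 starts could not appear. How far this raised the share of H3K27ac peaks that covered both starts was not tested.

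Coverage pooled over start-to-start regions was high at the centre. At the centre of start-to-start regions an ATAC peak covered 81.6% of regions, against 48.5% at single starts, and 500 bp to either side it covered 15.4% and 14.9%. In single regions the peak was often off the centre. The midpoint of the widest ATAC peak lay within 100 bp of the centre in 301 of 538 open regions (55.9%, 51.7 to 60.1), and between the starts in 191 (35.5%). With starts over 500 and up to 750 bp apart it lay within 100 bp of the centre in 4 of 20 regions, and over 750 bp in 0 of 18 (upper limit 17.6%). H3K27ac formed a plateau, with 85.1% of regions covered at the centre, 74.9% and 76.8% at 500 bp to either side, and 22.8% and 26.4% at 1000 bp. Single starts were asymmetric, with 36.5% covered at the start, 42.9% at 500 bp into the gene and 16.3% at 500 bp upstream. End-to-end regions had low coverage throughout. It was 0.711% for ATAC and 1.66% for H3K27ac at the centre, 2.61% and 5.45% at 2000 bp on the left side, and 1.42% and 4.502% at 2000 bp on the right.

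**Figure D2:**
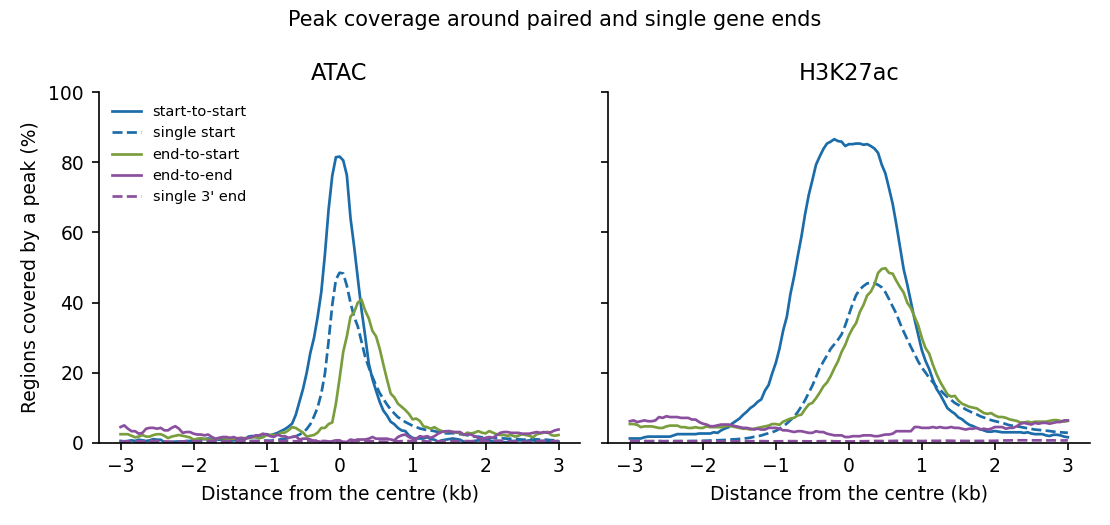
Percent of regions covered by an ATAC (left) or H3K27ac (right) peak at each distance in kb from the centre between facing ends, or from a single end; positive distances lead into the gene for single starts and towards the start for end-to-start pairs, and follow the chromosome for the other pairs. Start-to-start pairs peak at 81.6% (ATAC) and form a plateau above 74% within 500 bp of the centre (H3K27ac).

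The H3K27ac domain at facing starts was wider than at single starts, and it reached less far into each gene. The widest H3K27ac peak had a median width of 1565 bp in start-to-start regions (quartiles 1236 and 1984) and 1240 bp at single starts (813 and 1792). Widest ATAC peaks had medians of 457.5 and 444 bp. From the outer start, H3K27ac reached a median of 696.5 bp into a paired gene, 877 bp on the side with the longer reach and 558 bp on the other. At single starts it reached 883 bp into the gene and 320 bp upstream. H3K27ac extended to both sides of 74.95% of acetylated single starts, and into both genes in 90.5% of acetylated start-to-start regions.

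Among start-to-start regions the widest ATAC peaks stood at Aptx/Dnaja1 (1261 bp), Tada3/Arpc4 (1219 bp), Srsf7/Gemin6 (1162 bp), Smim14/Ube2k (1156 bp) and B3galt6/Sdf4 (1119 bp). Aptx encodes a DNA end-processing enzyme, Dnaja1 an Hsp40 chaperone, Arpc4 an Arp2/3 subunit and Srsf7 a splicing factor. With genes named Gm, LOC or Rik set aside, the widest H3K27ac peaks stood at Hnrnph3/Pbld2 (6179 bp), Cks1b/Shc1 (6000 bp), Mrps18b/Ppp1r10 (5345 bp), Ranbp1/Trmt2a (4249 bp) and Thap2/Zfc3h1 (4113 bp). Starts that touch, with a distance of 0 bp, carried both marks in all 5 pairs printed by the rule for the smallest distances: Smpd2/Ppil6, Tcta/Rhoa, Capza1/St7l, Ears2/Ubfd1 and Klhl18/Kif9. Both marks were as common among all start-to-start pairs at 100 bp or less, with 269 of 283 (95.1%).

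In end-to-start pairs the ATAC peaks lay mostly nearer to the start. Scored alone, the start in these pairs was open in 62.0% of cases and acetylated in 51.9%, 2.19 points (-2.51 to 6.69) and 3.23 points (-1.53 to 7.95) from single starts, and both intervals include 0. The neighbouring 3′ end had an ATAC peak within 500 bp in 203 of 447 cases (45.4%) and H3K27ac in 187 (41.8%), against 2.56% and 0.872% of single 3′ ends. Its window overlaps that of the start, as the ends are at most 1 kb apart. The midpoint of the widest ATAC peak was nearer to the start in 258 of 286 open regions (90.2%, 86.2 to 93.1), at a median of 113 bp from the start and 520 bp from the 3′ end. With ends over 250 bp apart it was nearer to the start in 184 of 203. One ATAC peak covered both ends in 21 of 286 regions. One H3K27ac peak covered both ends in 92 of 237 acetylated regions (38.8%, 32.8 to 45.2), and in 19 of 27 with ends at most 100 bp apart. The spacing of the H3K27ac list given above limits these counts too.

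Mc1r/Tubb3 shows this arrangement at a neuronal gene. The start of Tubb3, the neuronal class III beta-tubulin, lies 808 bp after the end of Mc1r, the melanocortin receptor of pigment cells, on chromosome 8. An ATAC peak of 658 bp at chr8:123411279-123411936 covered the start of Tubb3 at position 123411553, and a second of 217 bp lay inside Mc1r. One H3K27ac peak of 5451 bp spanned the whole region and was among the 5 widest of the end-to-start pairs. Kri1/Cdkn2d, where the neighbour is a cyclin-dependent kinase inhibitor gene, held an H3K27ac peak of 5181 bp and an ATAC peak of 414 bp.

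End-to-end regions rarely held a peak, and rarely between the ends. Of the 28 open regions, an ATAC peak entered the stretch between the 3′ ends in 6, and 1 peak covered both ends in 0 (upper limit 12.1%). The median of the widest ATAC peak was 232.5 bp, against 171.5 bp at open single 3′ ends and 457.5 bp at facing starts. Only 7 of the 422 regions held another start of the promoter table, and 2 of these had both marks. Without them and without regions that hold a non-coding gene or pseudogene, 26 of 410 were open (6.34%) and 21 acetylated (5.12%). The difference from single 3′ ends was 4.08 points for ATAC (2.04 to 6.89) and 4.58 points for H3K27ac (2.77 to 7.18). These regions are longer than the window of a single 3′ end. With each 3′ end scored alone in an equal window, 4.76% of 841 ends in end-to-end pairs were open, 2.20 points above single 3′ ends (0.904 to 3.89), and the difference for H3K27ac was 3.41 points (2.21 to 5.01). The whole-region differences of 4.08 and 4.58 points depended on the window and overlap rule. With 250 bp on either side the difference was 1.64 points for ATAC. With 1000 bp it was 6.41 points for ATAC and 8.74 points for H3K27ac, and by peak midpoints 2.56 and 1.56 points. The wider 50% of peaks gave 2.72 points for ATAC and 3.04 for H3K27ac.

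With genes named Gm, LOC or Rik set aside, the widest ATAC peaks of end-to-end regions stood at Ubd/Olfr94 (633 bp), Duox1/Shf (612 bp), Smim27/Ndufb6 (483 bp), Tufm/Atxn2l (447 bp) and Rnf39/Ppp1r11 (430 bp). Smim27/Ndufb6, the second encoding a subunit of respiratory complex I, held an ATAC peak of 483 bp and an H3K27ac peak of 2183 bp. Both lay on the Smim27 side, with the H3K27ac peak ending at position 40270074 and Smim27 at 40270228 on chromosome 4. H2ac21/H2ac20, a pair of histone H2A genes 58 bp apart, held 2 ATAC peaks of 234 and 329 bp, 1 on each side, under an H3K27ac peak of 2858 bp. The genes are so short that these peaks reach into them far from the facing ends. Uba7/Inka1, Mogs/Wbp1 and Kank3/Rps28 held H3K27ac peaks of 4394, 3702 and 2637 bp and no ATAC peak in the region.

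Shares differed less by the distance between the ends than by arrangement. Start-to-start pairs were closer (median 100 bp, quartiles 48 and 234) than end-to-start pairs (452.5 bp) or end-to-end pairs (381 bp), with 259 bp over all pairs. At 100 bp or less, 396 of 567 regions were open (69.8%) and 383 acetylated, and 283 of these pairs were start-to-start. Over 750 bp, 123 of 269 were open (45.7%) and 20 were start-to-start. Within start-to-start pairs the open share was 96.1% at 100 bp or less and 90.0% over 750 bp (18 of 20, interval 69.9 to 97.2), and the acetylated share 95.1% and 80% (58.4 to 91.9). End-to-start pairs had 51.7% open at 100 bp or less and 64.9% over 750 bp, with overlapping intervals (39.2 to 64.1 and 54.8 to 73.8). End-to-end pairs stayed between 4.35% and 8.82% open in every distance group up to 1 kb.

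**Figure D3:**
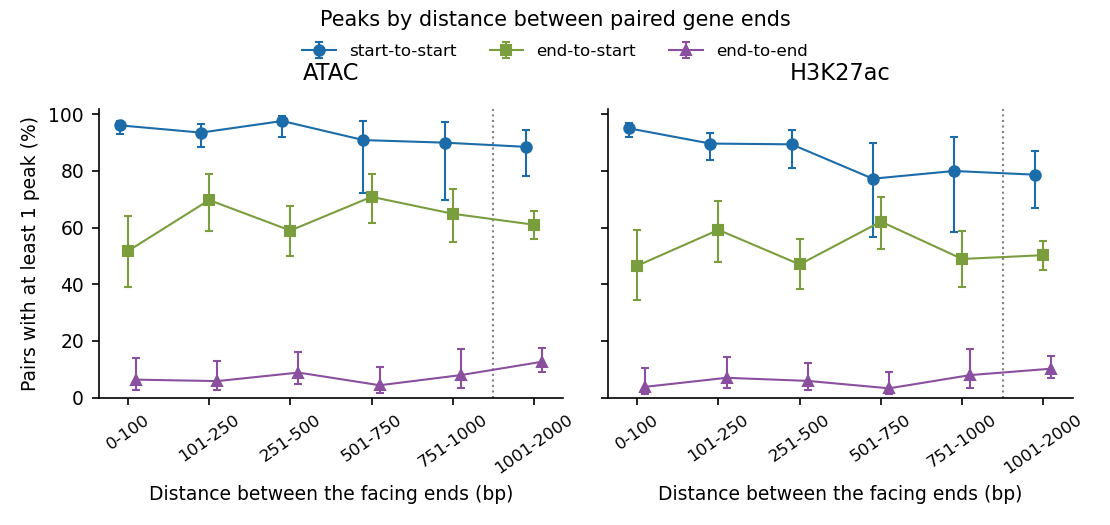
Percent of pairs with at least 1 ATAC (left) or H3K27ac (right) peak by distance between the facing ends in bp, for each arrangement; points are shares, whiskers 95% Wilson intervals, and the dotted line marks the 1 kb threshold. The 3 arrangements keep the same order at every distance, with intervals of start-to-start and end-to-start pairs overlapping over 500 bp and up to 1 kb, and start-to-start pairs 1 to 2 kb apart are still open in 88.5% of cases.

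The 1 kb threshold did not mark a step. Of 88 pairs in the last 100 bp inside it 38.6% were open and 29.5% acetylated, and of 90 pairs in the first 100 bp outside 38.9% and 34.4%. Between 1 and 2 kb, 54 of 61 start-to-start pairs were open (88.5%) and 48 acetylated (78.7%). Just inside, Pcgf2/Psmb3 (start-to-start, 999 bp) carried both marks, with its ATAC peak of 350 bp covering the start of Psmb3, a proteasome subunit, and not that of Pcgf2. Nfkbiz/Nxpe3 (998 bp, arrangement unknown) also carried both. Just outside, Ankrd34a/Lix1l (1006 bp, end-to-start) carried both and Nup93/Slc12a3 (1008 bp, end-to-start) neither.

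Facing starts had more CpG dinucleotides than single starts. A RefSeq promoter sequence whose start lies within 500 bp of the outer annotated start was found for 1027 of 1123 paired starts (91.5%) and 7552 of 9005 single starts (83.9%). For starts of end-to-start pairs it was found for 353 of 445 (79.3%), under the minimum of 80% set for this comparison, so these were left out. The 300 bases held a median of 24 CpG dinucleotides at starts of start-to-start pairs (quartiles 18 and 31) and 15 at single starts (5 and 26), and their G+C content had medians of 62.3% and 58.0%. Promoters with 20 or more CpG dinucleotides made up 68.5% of the paired starts and 40.1% of the single starts. Those with fewer than 5 made up 2.53% and 23.6%.

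Compared at the same CpG count, the ATAC difference was small from 15 CpG dinucleotides on, where few starts of either kind lacked a peak, while an H3K27ac difference of over 10 points remained. With 20 or more CpG dinucleotides, 99.1% of 703 paired starts and 96.8% of 3032 single starts were open, a difference of 2.38 points (1.23 to 3.21). In the same promoters 96.4% of paired and 85.2% of single starts were acetylated, a difference of 11.3 points (9.24 to 13.0). With 15 to 19, the ATAC difference was 2.99 points (-1.29 to 5.91) and the H3K27ac difference 17.6 points (11.8 to 22.2). With 10 to 14, all 73 paired starts were open against 83.7% of 768 single starts, and 94.5% were acetylated against 58.9%. With 5 to 9, 23 of 33 paired starts were open (69.7%) and 21 acetylated (63.6%), against 39.8% and 23.7% of single starts. With fewer than 5, 4 of 26 paired starts were open (15.4%) and 5 acetylated (19.2%), against 7.01% and 3.76%. These CpG groups were chosen after seeing the data, and the 2 starts of a pair share much of their sequence. The window of a paired start also mostly holds the facing start, which a single start lacks.

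**Figure D4:**
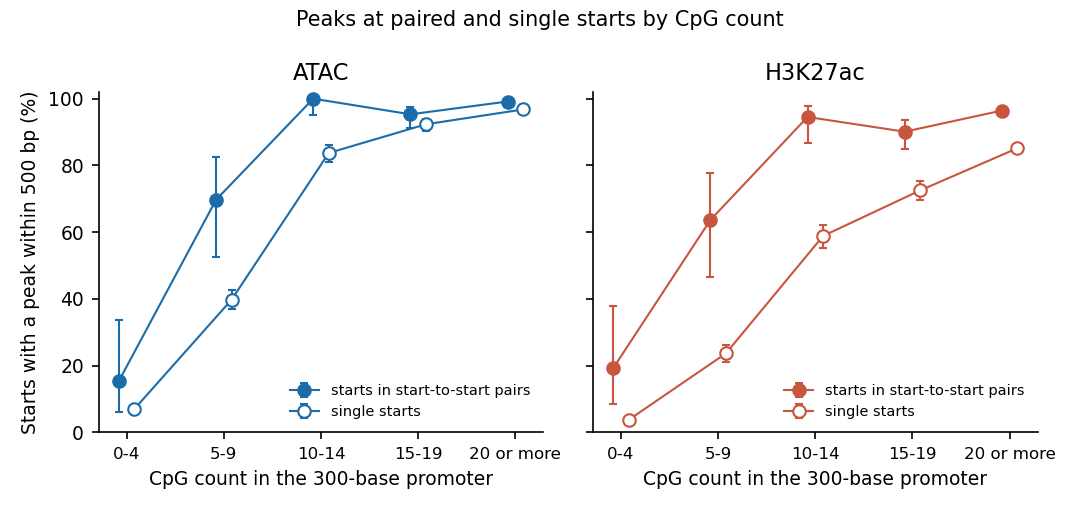
Percent of starts with an ATAC (left) or H3K27ac (right) peak within 500 bp, by the number of CpG dinucleotides in the 300-base promoter, for starts of start-to-start pairs (filled) and single starts (open); whiskers are 95% Wilson intervals. At 20 or more CpG the gap is 2.38 points for ATAC and 11.3 points for H3K27ac.

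Short sequence motifs differed between both kinds of promoter, counted as matches on either strand of the 300 bases. CCGGAAG, the core bound by ETS factors, stood in 28.8% of paired promoters (26.1 to 31.7), 11.0% of single promoters and 12.5% of all 14212 promoters with a sequence. GGGCGG, the GC box of Sp and KLF factors, stood in 68.8% of paired and 51.9% of single promoters (47.4% of all). AAGATGG, the YY1 core, stood in 11.6% and 6.37% (6.60% of all), GCATGCG, a part of the NRF1 site, in 7.89% and 4.91% (4.80% of all), and TGACGTC, a part of the cAMP response element, in 6.52% and 4.25% (4.17% of all). TATAAA, the TATA box, went the other way, with 5.36% of paired, 10.6% of single and 14.1% of all promoters. TGTGGT, the Runx core, stood in 9.93% of paired, 14.1% of single and 14.8% of all promoters. CANNTG, the E-box of basic helix-loop-helix factors, stood in 53.7%, 68.3% and 68.7%, and CCAAT, the NF-Y core, in 45.2%, 37.5% and 39.7%. None of these motifs contains another, a match is no evidence of binding, and the base composition of both kinds of promoter differs as given above.

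The share of genes in pairs differed between gene groups. In all, 17.5% of genes stood in a pair. Of 94 genes of oxidative phosphorylation, the respiratory chain and ATP synthase of mitochondria, 47 did (50%). So did 34 of 79 DNA repair genes (43.0%), 30 of 78 mitochondrial ribosome genes (38.5%), 13 of 37 tRNA synthetase genes (35.1%), 17 of 50 proteasome genes (34.0%) and 22 of 82 cytoplasmic ribosome genes (26.8%). Cell cycle and replication genes had 12 of 65 in pairs (18.5%). The 67 replication histone genes, which lie in clusters, had 43 members in pairs (64.2%). Zinc finger genes named Zfp had 39 of 360 in pairs (10.8%), and olfactory and vomeronasal receptors 7 of 1473 (0.475%).

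Of all start-to-start regions 515 of 565 carried both marks, and the counts for these groups are read against that. All 23 start-to-start pairs with an oxidative phosphorylation gene did, among them Atp5pb/Wdr77 (an ATP synthase subunit, 234 bp), Uqcrh/Lrrc41 (a complex III subunit, 198 bp) and Mrpl47/Ndufb5, which joins a mitochondrial ribosomal protein to a complex I subunit at 301 bp. All 21 with a DNA repair gene did, among them Fkbp3/Fancm, Xrcc3/Zfyve21 and Polh/Xpo5, a translesion polymerase beside a nuclear exporter of microRNA precursors. All 16 with a mitochondrial ribosome gene and all 6 with a tRNA synthetase gene did, such as Lyrm4/Fars2 and Mrps12/Sars2. The proteasome had 6 of 7 with both marks, the cytoplasmic ribosome 8 of 9 and zinc finger genes 10 of 11. Taking every arrangement, both marks were found in 37 of 50 oxidative phosphorylation pairs, 28 of 38 DNA repair pairs and 26 of 34 mitochondrial ribosome pairs, against 1003 of 2014 pairs in all. In these lists 23, 21 and 16 pairs were start-to-start, against 565 of the 2014. How far this mix of arrangements set the shares was not tested. Pairs can stand in more than 1 list.

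Replication histone genes differed in their marks. Their transcripts are made in S phase, and H2A and H2B genes often face each other. All 26 paired regions with such a gene were open, and 20 were acetylated, against 56.8% and 52.0% of all pairs. The start-to-start pairs had 10 of 10 open and 7 of 10 acetylated, against 95.2% and 91.5% of all start-to-start pairs. H2bc23/H2ac23 and H2ac24/H4bc24 held single ATAC peaks of 1004 and 987 bp and no H3K27ac, and H2bc1/H2ac1, a pair of testis histone genes, an ATAC peak of 160 bp and no H3K27ac. Other histone pairs were acetylated, such as H2ac13/H3c10 with an H3K27ac peak of 3008 bp. Several of these regions share a gene and a peak, and their near-identical copies limit how reads can be placed.

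**Figure D5:**
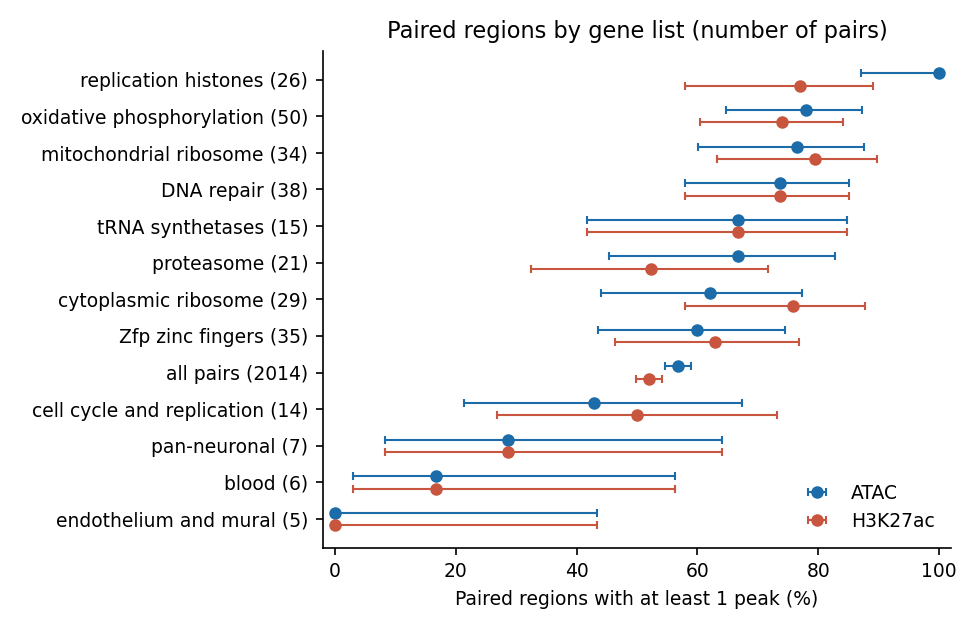
Percent of paired regions with at least 1 ATAC (blue) or H3K27ac (red) peak by gene list, with the number of pairs in brackets; points are shares and whiskers 95% Wilson intervals. Replication histone pairs are all open (26 of 26) with 20 acetylated, and of 5 pairs with an endothelial or mural gene 0 carry either mark. Of all pairs 56.8% are open and 52.0% acetylated.

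Counts of neuronal genes in pairs are read against the 17.5% of all genes that stood in a pair. Of 39 transcription factor genes of sensory neurons, among them Runx3 and Isl1, 0 were in pairs. Of 35 genes of somatosensory function 3 were (8.57%). Of 47 pan-neuronal genes 7 were (14.9%), which is near the share of all genes. The nearest end of another gene lay 93.3 kb from the start of Runx3 and 35.98 kb from its 3′ end, both belonging to Clic4. For Ntrk3 the nearest end was that of Mrpl46, 194 kb from the nearer of its own ends. P2rx3/Ssrp1 was the somatosensory pair with both marks. There an annotated end of P2rx3, an ATP-gated channel of sensory neurons, lies 11 bp from the start of Ssrp1, a histone chaperone, under an ATAC peak of 536 bp and an H3K27ac peak of 4151 bp. Abcb8/Asic3 and Ntf5/Lhb had neither mark. Among pan-neuronal pairs, Mc1r/Tubb3 and Eno2/Lrrc23 carried both marks. In Eno2/Lrrc23 the ATAC peak of 454 bp lay at the start of Eno2, the neuronal enolase. Engase/Rbfox3, Rab3a/Mpv17l2, Prkcsh/Elavl3 and Celf3/Snx27 had neither, and the first 3 are end-to-end, so that the region does not hold the start of the neuronal gene.

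Few pairs held a gene of the other cell types listed, and none with an endothelial, mural or blood gene was known to be start-to-start. Of 5 pairs with an endothelial or mural gene 0 were open: Tek/Eqtn, Esam/Vsig2, Egfl7/Agpat2, Stambpl1/Acta2 and Gm52351/Pdgfrb. Of these 2 were end-to-end and 3 of unknown arrangement. Of 6 pairs with a blood gene 1 was open, Gpr162/Cd4, and of the 6 pairs 1 was end-to-end and 5 unknown. Over all pairs 6.64% of end-to-end and 50.3% of unknown ones were open, so counts this small say little about these cell types. Its ATAC peak of 223 bp lay on the Gpr162 side, and the pair Hbb-bh2/Hbb-bh1 of embryonic globin genes had neither mark. Among pairs with a glial gene, Rhebl1/Dhh carried both marks and Fam187a/Gfap neither. Dhh encodes desert hedgehog, a signal of Schwann cells, but its end in this region is the 3′ end. An end of Rhebl1, whose strand is unknown, lies in the same region. Of 5 pairs with an olfactory receptor 1 was open and 0 acetylated.

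The start-to-start regions without marks were few. Of 565 regions 25 had neither mark, 23 had ATAC only and 2 had H3K27ac only. With genes named Gm, LOC or Rik set aside (Gm26650/Gm10410, 9 bp apart, is one such pair), those with neither mark and the smallest distances were Best1/Rab3il1 (35 bp), Deaf1/Eps8l2 (41 bp), Dusp3/Cfap97d1 (42 bp), Tmie/Als2cl (46 bp) and Slc30a3/Dnajc5g (48 bp). Best1 encodes a chloride channel of retinal pigment epithelium, and Tmie a part of the hair cell transduction channel. Further such pairs, named after their values were seen, were Duox2/Duoxa2, a thyroid oxidase with its maturation factor, Ifit1bl2/Ifit1 of the interferon response, Olfr181/Olfr183 and Mup15/Mup-ps12.

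Part of these exceptions had a second annotated start inside the gene. The outer end of a gene's span can be a rarely used start, and the promoter table can place the start elsewhere. In 473 start-to-start pairs both table starts lay within 500 bp of the outer starts, and 97.5% of these regions were open, 94.1% acetylated and 2.33% without marks. In the other 92 pairs, 83.7% were open, 78.3% acetylated and 15.2% without marks. Of the 25 regions without marks, 7 involved a gene whose table start lay more than 500 bp inside and was open there, and 6 of these starts were acetylated. They were Stat5b (8423 bp inside), Mto1 (4731 bp), Cenpj (3643 bp), Dusp3 (2222 bp), the ribosomal protein gene Rps2 (1942 bp) and Rnf123 (1051 bp), named after their values were seen. The pairs are Stat5b/Stat5a, Cgas/Mto1, Cenpj/Parp4, Dusp3/Cfap97d1, Rnf151/Rps2 and Rnf123/Mst1. For Deaf1/Eps8l2, Best1/Rab3il1, Tmie/Als2cl and Slc30a3/Dnajc5g, both table starts lay within 100 bp of the outer starts and neither held a peak.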

How the data were processed

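Per the submitters' processing notes, the authors' tools were MACS2 and bedtools, with cutadapt 1.18 and Bowtie2 2.3.5.1, and the build was mm10. Thresholds and the rule for the consensus are not given in the sources used here. The deposited values are the start and end positions of 43739 ATAC and 19928 H3K27ac consensus peaks, with no score, signal or count, so depth is unknown and input DNA was not used here. Positions are printed counted from 1.

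Gene spans came from the RefSeq annotation of GRCm38, and strands and promoter sequences from the RefSeq promoter table (GRCm38.p6), matched by gene ID for 16457 of 20665 genes. A region was called open or acetylated when 1 bp or more overlapped a peak. A single end has no end of any protein-coding gene, its own included, within 5 kb. Shares have 95% Wilson intervals and differences 95% Newcombe intervals. No p-values were computed, as 1 list per assay gives no replicates. Of 467 list entries by symbol, 18 matched through a synonym and 8 were not matched on these chromosomes.

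Members, lists and comparisons were chosen with earlier results of these data known. Named pairs are those of the divergent pair list, the regions with the widest peaks, up to 4 pairs per list with most H3K27ac and the exceptions, the smallest distances, all neuronal pairs and pairs at the threshold. Scoring was tested on simulated data. Python 3.11.15, numpy 2.4.6 and pandas 2.3.3 were used. Alternatives changed the window, the overlap rule, the peaks, the distances and the genes taken.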

Additional observations from a re-analysis of the deposited data

How the results depend on the processing

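No paired analysis was possible because each assay has 1 consensus list that pools its 2 replicates, and for the same reason leaving out each replicate gave no value. Every difference kept its direction under every alternative run. Differences in percentage points that left the 95% interval of the reported value are given here. For all pairs against single ends in ATAC, H3K27ac and both marks, ends 500 bp or less apart gave 29.1, 32.0 and 31.4, not counting a gene's own other end gave 29.1, 30.2 and 29.3, and single ends without another end within 20 kb gave 18.7, 21.7 and 21.01. Counting non-coding genes gave 27.2 for ATAC and 27.6 for both. The wider 50% of peaks gave 23.8 for H3K27ac and 22.3 for both, and a window around the midpoint 21.8 for ATAC. For start-to-start pairs against single starts, ATAC gave 38.6 with 250 bp on either side, 32.6 with 1000 bp, 38.01 by peak midpoints and 33.0 without genes named Gm, LOC or Rik. H3K27ac gave 49.0 with the wider 50% of peaks and 49.7 by peak midpoints. For end-to-end pairs against single 3′ ends, ATAC gave 1.64 with 250 bp, and H3K27ac 8.74 with 1000 bp and 1.56 by midpoints. Within CpG groups, chosen after seeing the data (0 to 4, 5 to 9, 10 to 14, 15 to 19, 20 or more), the difference per start was 8.38, 29.9, 16.3, 2.99 and 2.38 for ATAC and 15.5, 39.97, 35.7, 17.6 and 11.3 for H3K27ac. Leaving out pairs of replication histone genes, also chosen after seeing the data, was run for the start-to-start and end-to-end differences and kept each of these within its interval. Other causes of these shifts were not tested.

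The lists record presence or absence of a peak, so levels cannot be compared, and how far depth limits the weaker peaks is unknown. Annotated outer ends are not always the starts used in these cells. Arrangement is unknown for 579 pairs, and 66 regions overlap a gene beyond the pair.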

Other observations

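The widest H3K27ac peaks over paired ends stood at Hox genes, which pattern the body axis. Of 39 Hox genes 8 stood in pairs (20.5%), against 17.5% of all genes. Of their 4 pairs 2 were open and 3 acetylated, against 56.8% and 52.0% of all pairs. Hoxb8/Hoxb7 and Hoxb5/Hoxb3 both lay under a single H3K27ac peak of 85798 bp at chr11:96269602-96355399. Hoxb8/Hoxb7, 278 bp apart, held an ATAC peak of 306 bp, and Hoxb5/Hoxb3, 979 bp apart, held none. Hoxa5/Hoxa6, an end-to-start pair 270 bp apart, lay under an H3K27ac peak of 23771 bp and held an ATAC peak of 362 bp. Hoxc5/Hoxc4 had neither mark.

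Other gene groups had few genes in pairs, against 17.5% of all genes. Clustered protocadherins had 0 of 57 genes in pairs, genes of mesenchyme and muscle 0 of 21, keratins and keratin-associated proteins 4 of 109, and serpins and kallikreins 4 of 89. Genes whose spans overlap cannot form a pair under the rule, and how far this set the counts was not tested. The pairs Krt90/Krt75 and Krt78/Krt8 had neither mark. Pdcd10/Serpini1, start-to-start at 640 bp, carried both: Serpini1 encodes neuroserpin, a protease inhibitor of neurons, and the region held ATAC peaks of 539 and 260 bp under an H3K27ac peak of 1867 bp. Of 14 pairs with a cell cycle or replication gene, 6 were open and 7 acetylated, against 56.8% and 52.0% of all pairs. Mcm4/Prkdc, Vps35/Orc6 and Trmt6/Mcm8 carried both marks, and the end-to-end pairs Nif3l1/Orc2, Fam210b/Aurka, Wsb2/Rfc5 and Cops6/Mcm7 neither. The pair with a spinal cord gene, Lhx3/Qsox2, was open only.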
